A study of Rattus norvegicus with 8 samples.

Results

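The genes described here encode the respiratory chain and the ATP synthase of mitochondria, in RNA from rat veins. They are the 109 rows, of 37209 in the table, whose names begin as those of complex I (Nduf a, b, c, s or v), complex III (Uqcr), complex IV (Cox4 to Cox8) or complex V (Atp5) subunits, the Sdh a to d genes of complex II, and 13 genes of the mitochondrial DNA. Names of complex I assembly factors (Ndufaf) were left out. Of the members, 96 are nuclear rows and 13 are mitochondrial rows. The study compared vein grafts, set with cuffs into the divided left common carotid artery, with control jugular veins from the opposite side of the operated animals, which were not grafted. Both groups came from Sprague Dawley rats, an outbred laboratory strain, and were taken 1 week after the operation, with 4 libraries of total RNA each. No transgene, allele or drug is named for either group, and the animals of both groups had the operation. No age or sex is stated for the animals.

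Oxidative phosphorylation uses electrons from food to pump protons across the inner mitochondrial membrane. Complex I takes electrons from NADH and complex II from succinate, coenzyme Q carries them to complex III, cytochrome c carries them on to complex IV, and complex IV passes them to oxygen. Complex V, the ATP synthase, lets the protons flow back and makes ATP. The subunits of complex II are all nuclear, while the other complexes join nuclear subunits with a few made inside the mitochondrion from its own DNA. Heart, brown fat and oxidative skeletal muscle are known for their many mitochondria, and striated muscle and testis use their own forms of several complex IV subunits.

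Libraries held 5981520 to 16061189 counts, and 3 counts corresponded to 0.187 to 0.502 CPM, the count scaled to the size of its library. Levels below are CPM with TMM factors, which sets libraries to a common scale from the bulk of the genes. The extraction text in the labels names prefrontal cortex, whereas the tissue labels name veins. The neuron genes Snap25, Rbfox3, Slc17a7 and Gad1 and the oligodendrocyte gene Olig2 had 0 to 10 counts in every library. Other genes of that 9-gene brain list were higher: the myelin gene Mbp had 37.1, 48.6, 647 and 592 CPM in controls and 10.8 to 55.7 CPM in grafts, and Map2 had 1.95 to 8.59 CPM in controls and 6.87 to 22.0 CPM in grafts, while Syt1 and Gfap lay between 0.150 and 5.20 CPM in all libraries. In the same libraries 9 smooth muscle markers summed to 13210 to 21860 CPM in controls and 1825 to 3490 CPM in grafts. Macrophage markers summed to 243 to 397 CPM in controls and 3086 to 6098 CPM in grafts. Controls 3 and 4 stood apart in fat: 9 white adipocyte markers summed to 499, 743, 1919 and 2325 CPM in controls 1 to 4 and to 150 to 212 CPM in grafts. Ucp1, the uncoupling protein that defines brown fat, had 400 and 424 counts in controls 3 and 4 and 0 in the other 6 libraries. Those 2 controls are therefore left out together in a second fit, whose values stand beside the results. In such bulk samples, fewer cells of a type and less RNA per cell cannot be told apart.

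Among nuclear respiratory chain genes, 14 of 37 tested rows of complex I, 2 of 4 of complex II and 3 of 9 of complex III fell in the grafts and 0 rose, numbers that became 3, 1 and 1 without controls 3 and 4. In complexes IV and V, 3 of 14 and 1 of 17 fell and 3 rose in each. Of the 94 members with enough counts to test, 25 fell, 6 rose and 63 were not called by edgeR's quasi-likelihood test (Benjamini-Hochberg adjusted p below 0.05 over the 15464 genes tested). Among all genes tested, 42.3% were called, 21.0% as higher and 21.3% as lower in grafts, so the members' 33% called lies below the background, with 26.6% falling and 6.4% rising. The median log2 fold change, graft minus control, was -0.38 over the tested members and 0.01 over all genes, and 71 members lay below 0. In 16 members every graft lay below every control, and in 3 every graft lay above, 19 of 94 against 40.6% of all genes whose groups did not overlap. Of the 81 tested nuclear members 23 fell and 6 rose, and of the 13 mitochondrial rows 2 fell and 0 rose, with 4 mitochondrial rows at an unadjusted p below 0.05. The plot of fold changes by complex shows how the members spread.

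**Figure D1:**
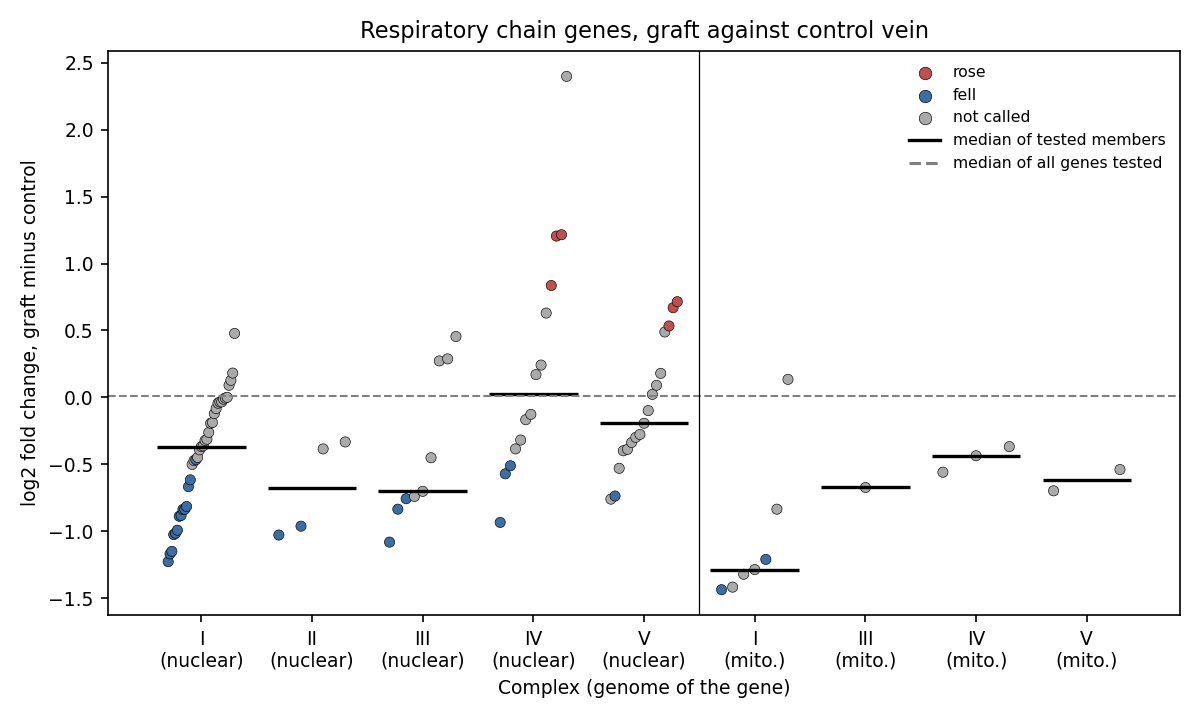
Log2 fold change (graft minus control, y axis) of each tested member, by complex and genome (x axis); blue points fell, red points rose, grey points were not called, black bars are medians of tested members and the dashed line is the median of all genes tested. Nuclear complexes I, II and III have medians of -0.37, -0.67 and -0.70, while complex IV has 0.02.

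These counts changed with the libraries that were left out. Without controls 3 and 4, 5 nuclear members fell and 1 rose, 0 mitochondrial rows were called (1 had an unadjusted p below 0.05), and the nuclear median was -0.17, while 2525 of all genes still rose and 2253 fell. The number of nuclear members that fell was 15 without control 3, 12 without control 4, 14 without graft 1, 13 without graft 2 and 11 without graft 3. The number that rose was 1 without control 2, 2 without control 3, 1 without control 4, 0 without graft 1, 1 without graft 2, 2 without graft 3 and 2 without graft 4. Of the 31 called members, 30 kept their call without control 1, 22 without control 2 and 21 without graft 4. Members that gained a call in these fits numbered 11, 8 and 0. Without control 4, 2920 of all genes rose and 2759 fell. With library totals in place of TMM, 8 nuclear members rose and 13 fell against 4558 and 2164 of all genes. That scaling moved the median of all genes to 0.23 and that of the members to -0.15, and the members' median was below that of all genes in both fits. The part of the fat in controls 3 and 4 in these results was not tested.

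Only 5 rows passed the threshold in the main fit and under all 16 alternatives: Ndufs4, Ndufv3 and Ndufa10l1 of complex I, Sdhc of complex II and Uqcrh of complex III. All 5 fell. Without controls 3 and 4 their log2 fold changes were -0.80, -0.83, -0.98, -0.60 and -0.67, with edgeR adjusted p of 0.0151, 0.0243, 0.0319, 0.0206 and 0.00608.

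As sums, the nuclear members made up 3394, 3125, 3956 and 5565 CPM in controls 1 to 4 and 2864, 2812, 2444 and 2998 CPM in grafts 1 to 4. Every graft lay below every control, with control 4 the highest and control 2 closest to the grafts. As a plain share of all counts, without TMM, the nuclear members made up 0.369% ± 0.0948 (SD, n = 4) in controls and 0.299% ± 0.0141 (SD, n = 4) in grafts, and the groups overlapped. By complex, the nuclear sums in grafts were 0.649 of the control mean for complex I, 0.584 for complex II, 0.642 for complex III, 0.759 for complex IV and 0.764 for complex V. The groups did not overlap in complexes I to IV and overlapped in complex V. Like the total, these sums carry the TMM factors, 0.90 to 0.96 in controls and 1.03 to 1.19 in grafts. Their separation therefore depends on that scaling.

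Promoters of the nuclear genes are known for binding sites of NRF1 (nuclear respiratory factor), of the ETS factor GABP and of YY1, which act on many respiratory chain genes. RefSeq promoters of the GRCr8 assembly, 250 bases before to 50 after the start, matched 77 of the 96 nuclear rows. The letters GCGCANGCG (NRF1), searched on both strands, stood in 23.38% of the members and 6.26% of the 27457 promoters in the table. CCGGAAG (ETS) stood in 25.97% and 9.22%, and AAGATGGC (YY1) in 20.78% and 3.44%. The 3 motifs do not contain each other, and at least 1 stood in 55.84% of the members and 16.67% of all promoters. By response, NRF1 letters stood in 5 of the 19 matched members that fell, 1 of the 4 that rose and 11 of the 46 that were not called. ETS letters stood in 4, 0 and 14 of these groups, and YY1 letters in 2, 0 and 13. The promoters compared were not matched to those of the members in their content of G and C, so the shares are not adjusted for it. A match is a run of letters and does not show that a factor binds there.

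The 150 bases before the start are shown for members that moved: Sdha and Atp5g2 carry NRF1 letters, and moved in opposite directions, while Uqcrc2 and Uqcrh carry ETS letters and both fell. These are examples only. Over the matched members, ETS letters stood in 21.05% of those that fell, 0% of those that rose and 30.43% of those not called. Capitals mark the motif, and on the printed strand CTTCCGG is the ETS motif read from the opposite strand. Sdha lies at chr1:30764403-30764552 on the plus strand, Atp5g2 (now named Atp5mc2) at chr7:135678219-135678368 on the minus strand, Uqcrc2 at chr1:184599090-184599239 on the plus strand and Uqcrh at chr5:134790883-134791032 on the minus strand.
Sdha: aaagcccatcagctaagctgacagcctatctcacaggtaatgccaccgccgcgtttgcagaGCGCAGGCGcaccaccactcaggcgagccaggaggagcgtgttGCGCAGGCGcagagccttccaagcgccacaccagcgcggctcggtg
Atp5g2: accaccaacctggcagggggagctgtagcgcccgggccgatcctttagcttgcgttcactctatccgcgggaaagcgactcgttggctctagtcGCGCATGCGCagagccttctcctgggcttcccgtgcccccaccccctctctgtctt
Uqcrc2: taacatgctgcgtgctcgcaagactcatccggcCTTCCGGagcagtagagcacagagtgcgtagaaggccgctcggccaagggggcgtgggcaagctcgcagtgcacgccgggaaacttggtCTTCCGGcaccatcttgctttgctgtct
Uqcrh: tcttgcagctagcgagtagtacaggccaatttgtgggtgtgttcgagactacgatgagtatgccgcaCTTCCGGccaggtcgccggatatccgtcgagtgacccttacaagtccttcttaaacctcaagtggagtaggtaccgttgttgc
Counted back from the start, with -1 the base before it, the motifs begin at -89 and -46 in Sdha, at -117 and -28 in Uqcrc2 and at -83 in Uqcrh. Another NRF1 match in Sdha begins at -1 and runs past the printed bases, so it is not marked. In Atp5g2 the run is a palindrome that gives 1 match on each strand, beginning at -56 and -55.

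Complex I had the most members, and all of its called nuclear rows fell. Of 37 tested nuclear rows 14 fell, 0 rose and 23 were not called (18 had an unadjusted p below 0.05), with folds from -1.23 to 0.48, 5 of them above 0. The 37.8% that fell and 0% that rose stand against 21.3% and 21.0% of all genes. In 9 of the 37 rows every graft lay below every control, as in 3064 of all 15464 genes tested. Ndufs4, an accessory subunit of the NADH-oxidising arm that is mutated in a mouse model of Leigh syndrome, had 39.9, 51.5, 50.6 and 66.3 CPM in controls 1 to 4 and 28.0, 28.9, 21.3 and 26.3 CPM in grafts 1 to 4. The groups did not overlap, and control 4 was the highest library. Its log2 fold change was -0.99 ± 0.17 (SE), with an edgeR adjusted p of 0.00161.

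Ndufv3, a small subunit of the same arm, had 34.2, 52.1, 65.7 and 75.4 CPM in controls and 23.7, 28.2, 19.8 and 25.2 CPM in grafts. The groups did not overlap, although control 1 lay near the highest graft. The change was -1.23 ± 0.23 (SE), edgeR adjusted p 0.00253. Ndufa10l1, a row named as a copy of Ndufa10, had 7.72, 6.87, 7.36 and 11.6 CPM in controls and 3.34, 4.58, 2.88 and 3.98 CPM in grafts. It fell by 1.17 ± 0.25 (SE) on the log2 scale with no overlap (edgeR adjusted p 0.0047). Ndufa10 itself fell by 0.47 (edgeR adjusted p 0.0459), a call that held in 4 of 16 alternatives. Without controls 3 and 4 its fold was -0.20 (edgeR adjusted p 0.295). Reads shared by Ndufa10 and Ndufa10l1 may have been split, so the size of either change is uncertain.

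By structural part, 4 of 9 tested rows of the N module, which binds NADH, fell, against 1 of 5 of the Q module, which hands electrons to coenzyme Q, and 7 of 19 of the proton-pumping membrane arm. None of these rows rose, and the medians were -0.47, -0.32 and -0.37. The shares that fell were 44.4%, 20% and 36.8%, against 21.3% of all genes. Besides those above, the rows that fell were Ndufs1 (-1.15), the large iron-sulfur subunit, Ndufv2 (-0.84), which holds another iron-sulfur cluster, Ndufb9 (-1.02), Ndufb4 (-1.01), Ndufb3 (-0.88), Ndufc1 (-0.84), Ndufc2 (-0.67), Ndufa5 (-0.61), Ndufab1 (-0.89), which is also the acyl carrier protein of mitochondria, and Ndufa4 (-0.81), counted by name here but now known as a subunit of complex IV. The flavin-binding subunit Ndufv1, with 50.6, 36.1, 50.3 and 67.6 CPM in controls and 40.4, 34.3, 35.6 and 37.0 CPM in grafts, was not called and its groups overlapped. The tested rows Ndufa4, Ndufa4l2, Ndufa9 and Ndufa10l1 were placed in no part, so the counts by part leave them out. Ndufa9 (-0.50) and Ndufa4l2 were not called. The number of complex I rows that fell was 7 without control 4, 7 without graft 2 and 7 without graft 3, and 3 without controls 3 and 4, when the folds of the rows given here as falling were -0.35 to -0.65 and none was called. The count was 8 with library totals in place of TMM.

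Complex II, which is also the succinate dehydrogenase of the citric acid cycle, had 2 of its 4 subunits called, and both fell. That is 50% falling, against 21.3% of all genes. Sdha, the flavoprotein that oxidises succinate, had 121, 166, 260 and 349 CPM in controls and 103, 113, 91.2 and 133 CPM in grafts. Controls 3 and 4 were far above the rest, and control 1 lay within the range of the grafts. The log2 fold change was -1.03 ± 0.30 (SE), edgeR adjusted p 0.0196, and -0.38 with an adjusted p of 0.184 without controls 3 and 4. That call was also lost without control 3, control 4, graft 1 or graft 3 alone.

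Sdhc, a membrane anchor, had 82.0, 77.7, 105 and 147 CPM in controls and 47.8, 56.7, 47.2 and 59.2 CPM in grafts, with no overlap. It fell by 0.96 ± 0.20 (SE) on the log2 scale, edgeR adjusted p 0.00445. Sdhb, the iron-sulfur subunit, had 47.0, 52.6, 70.2 and 111 CPM in controls and 53.2 to 53.9 CPM in all 4 grafts. Sdhd, the other anchor, had 70.3, 60.7, 66.7 and 108 CPM in controls and 58.2, 58.3, 58.2 and 67.8 CPM in grafts. Neither was called, and their groups overlapped. The fold of Sdhb turned from -0.38 to 0.11 without controls 3 and 4.

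Complex III had 3 of 9 tested rows that fell and 0 that rose, 6 of the 9 having an unadjusted p below 0.05. The 33.3% that fell and 0% that rose stand against 21.3% and 21.0% of all genes. Uqcrh, the hinge protein that helps bind cytochrome c1, had 80.8, 78.0, 80.1 and 98.6 CPM in controls and 53.8, 48.8, 50.1 and 47.0 CPM in grafts. The groups were well apart, and controls 1 to 3 lay between 78.0 and 80.8 CPM. Its change of -0.76 ± 0.11 (SE) had the smallest edgeR adjusted p of all members, 0.000669.

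Uqcrc2, a core subunit, had 100, 139, 208 and 288 CPM in controls and 108, 101, 84.8 and 119 CPM in grafts. Control 1 lay within the grafts, and controls 3 and 4 carried the difference in means. It fell by 0.83 ± 0.29 (SE) on the log2 scale, edgeR adjusted p 0.0411. Without controls 3 and 4 the adjusted p was 0.44, and the call was lost without control 3, control 4 or any of the 4 grafts alone. Uqcrb-ps1, named as a pseudogene of the ubiquinone-binding subunit Uqcrb, fell by 1.08 ± 0.34 (SE), edgeR adjusted p 0.0303, while Uqcrb, at -0.70, was not called. Reads may be shared between both rows, and the pseudogene's call was lost without control 2, 3 or 4 or graft 1 or 3. The number of complex III rows that fell was 5 without control 2, 1 without each of control 3, control 4, graft 1 and graft 3, and 1 without controls 3 and 4. Without control 1, 2 rows of complex III rose.

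Of 14 tested nuclear rows of complex IV 3 fell, 3 rose and 8 were not called, with a median of 0.02. That is 21.4% in each direction, near the 21.3% that fell and 21.0% that rose among all genes. Cox4i1, the common form of subunit 4, had 106, 94.4, 125 and 161 CPM in controls and 84.9, 78.4, 78.0 and 85.9 CPM in grafts. The groups did not overlap. It fell by 0.57 ± 0.16 (SE) on the log2 scale, edgeR adjusted p 0.018, and by 0.29 with an adjusted p of 0.125 without controls 3 and 4. The call was also lost without graft 3 and with library totals.

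Cox6c fell by 0.93 ± 0.23 (SE), edgeR adjusted p 0.0107, from 92.1, 133, 149 and 185 CPM in controls to 70.5, 76.6, 51.2 and 94.1 CPM in grafts. Graft 4 lay just above control 1, so the groups overlapped, and the fold without controls 3 and 4 was -0.62 (adjusted p 0.107). Cox7a2l, also known as SCAF1, which joins complexes III and IV into supercomplexes, had 137, 204, 178 and 153 CPM in controls and 118, 99.4, 131 and 124 CPM in grafts. Here control 2 was the highest library and control 4 was not, and the groups did not overlap. The change was -0.51 ± 0.15 (SE), edgeR adjusted p 0.0205, and -0.53 with an adjusted p of 0.0733 without controls 3 and 4. It was not called without control 2, control 3, graft 1 or graft 2, nor with library totals.

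The complex IV rows that rose were Cox6a1, Cox6b1 and Cox4i2. Cox6a1, the form of subunit 6a found outside striated muscle, had 31.7, 13.1, 15.3 and 16.1 CPM in controls and 35.4, 37.3, 32.0 and 31.9 CPM in grafts. Control 1 was close to the grafts and the other controls were far below them. It rose by 0.84 ± 0.26 (SE), edgeR adjusted p 0.0276. The call was lost without control 2, control 3, control 4, graft 1 or graft 2, and without controls 3 and 4 (0.60, adjusted p 0.191).

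Cox6b1 had 1.50, 0.398, 2.09 and 0.933 CPM in controls and 2.97, 2.48, 3.36 and 2.89 CPM in grafts, with no overlap but few counts. Its rise of 1.21 ± 0.43 (SE) had an edgeR adjusted p of 0.048, and leaving out any library other than control 3 ended the call. Cox6b1 gave 33.1% ± 21.9 of the Cox6b counts in controls and 49.6% ± 9.74 in grafts (SD, n = 4), and the groups overlapped. The rest came from Cox6b2, which was not called, and why Cox6b2 gave so large a share was not tested. Cox4i2, the form of subunit 4 known from lung and from low oxygen, had 1.57, 1.89, 0.837 and 2.05 CPM in controls and 4.37, 3.76, 4.48 and 1.93 CPM in grafts. Graft 4 lay among the controls. The rise was 1.22 ± 0.39 (SE), edgeR adjusted p 0.0297, and the call was lost without control 3, graft 1, graft 2 or graft 3, and without controls 3 and 4 (1.07, adjusted p 0.105). Of complex IV rows, 0 rose without graft 1 or graft 2, and 1 rose without control 2, control 4 or graft 3. Without controls 3 and 4 the only complex IV row called was Cox6a2, whose remaining controls had no counts, and 0 rows fell.

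**Figure D2:**
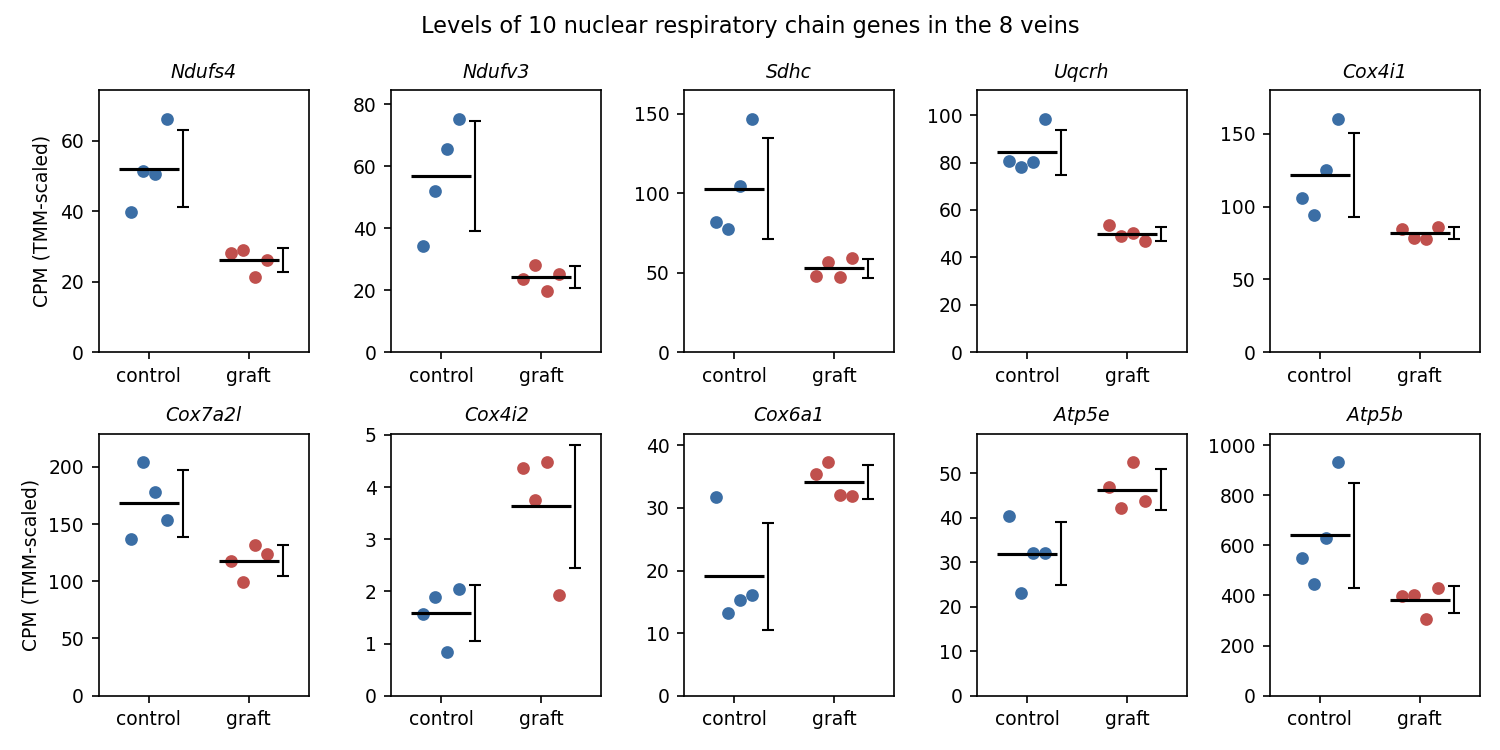
CPM (TMM-scaled, y axis, from 0) of 10 nuclear members in the 4 control veins (blue) and the 4 grafts (red), with the mean as a bar and the SD beside it. Uqcrh and Ndufs4 show groups apart from each other, while for Cox4i2 graft 4 (1.93 CPM) lies among the controls and for Cox6a1 control 1 (31.7 CPM) lies near the grafts.

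Several subunits exist as forms made by different genes, and the share of each form within its set does not depend on the scaling of libraries. Cox4i2 gave 1.46%, 1.96%, 0.66% and 1.26% of the Cox4i counts in controls and 4.89%, 4.57%, 5.43% and 2.19% in grafts, with no overlap. Ndufa4l2, a hypoxia-inducible form of Ndufa4, gave 10.1% ± 2.65 (SD, n = 4) of the Ndufa4 counts in controls and 15.9% ± 2.02 (SD, n = 4) in grafts, where the lowest graft (13.18%) lay barely above the highest control (13.14%). Its own level was 4.46 ± 0.93 CPM in controls and 4.45 ± 0.92 CPM in grafts (SD, n = 4), and it was not called. Ndufa4 had 36.6, 28.6, 38.0 and 65.1 CPM in controls and 31.2, 24.9, 17.0 and 22.1 CPM in grafts, overlapping, with an edgeR adjusted p of 0.035 that was lost without control 3, control 4, graft 2, graft 3 or graft 4.

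Cox6a2 and Cox8b, forms known from striated muscle, varied widely between libraries of the same group. Cox6a2 had 0, 0, 2.26 and 0.373 CPM in controls and 6.49, 0.376, 1.68 and 6.04 CPM in grafts. Adult skeletal muscle markers (10 genes) summed to 54.9, 43.0, 1473 and 205 CPM in the controls and 699, 39.2, 367 and 920 CPM in the grafts, so the libraries low in muscle markers were also low in Cox6a2. Cox8b had 0, 0, 14 and 10 counts in controls and 10, 2, 1 and 8 in grafts, too few to test. Of the controls, only those with Ucp1 counts (400 and 424) had any Cox8b, while the grafts had Cox8b counts but 0 of Ucp1. Cox6a2 was not called (2.40 ± 1.17 SE, edgeR adjusted p 0.127). The part of muscle or fat next to the vein in these values was not tested.

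**Figure D3:**
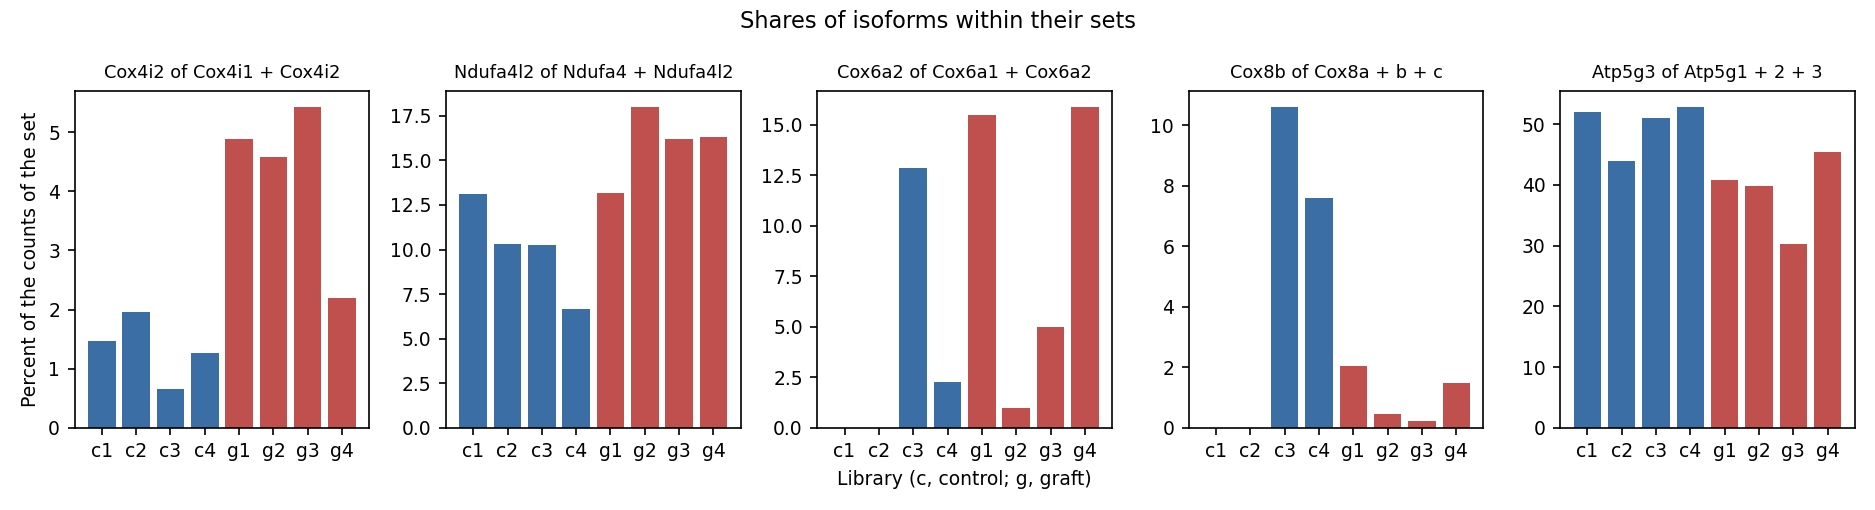
Percent of the counts of a set of related genes (y axis, from 0) given by the named form, in each library (c, control; g, graft). Cox4i2 lies between 0.66% and 1.96% in controls and between 2.19% and 5.43% in grafts, while Cox6a2 and Cox8b are at 0% in controls 1 and 2.

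Complex V had 1 of 17 tested nuclear rows that fell, 3 that rose and 13 that were not called. The rows were taken by name and include Atp5s, now named Dmac2l and no longer named as an ATP synthase subunit, and its namesake Atp5sl. Neither was called. The 5.9% that fell and 17.6% that rose lie below the shares over all genes (21.3% and 21.0%). Atp5b, the catalytic beta subunit, had 549, 444, 631 and 933 CPM in controls and 399, 401, 305 and 430 CPM in grafts, with no overlap. It fell by 0.74 ± 0.23 (SE), edgeR adjusted p 0.0259. The call was lost without control 4, graft 1, graft 2 or graft 3, with library totals, and without controls 3 and 4 (-0.37, adjusted p 0.188). The partner alpha subunit, Atp5a1, had 237, 175, 230 and 337 CPM in controls and 202, 209, 166 and 219 CPM in grafts, overlapping, and was not called.

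The rows that rose were the epsilon subunit Atp5e and a pair of the 3 genes for subunit c, the ring that turns with proton flow. Atp5e had 40.5, 23.0, 32.1 and 32.1 CPM in controls and 46.8, 42.1, 52.5 and 43.7 CPM in grafts. Its groups did not overlap, and the rise was 0.53 ± 0.17 (SE), edgeR adjusted p 0.0311. Atp5g1 had 15.4, 9.26, 6.86 and 9.52 CPM in controls and 16.7, 15.1, 21.7 and 14.3 CPM in grafts, and Atp5g2 had 30.0, 17.3, 14.0 and 19.0 CPM in controls and 32.9, 29.4, 34.9 and 30.8 CPM in grafts. In both, control 1 lay within the grafts. They rose by 0.71 ± 0.26 and 0.67 ± 0.22 (SE), with edgeR adjusted p of 0.0489 and 0.0342.

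Atp5g3, whose product is the same mature protein, was at 31.0 ± 13.2 CPM in controls and 31.5 ± 5.70 CPM in grafts (SD, n = 4). It gave 50.0% ± 4.13 of the subunit c counts in controls and 39.1% ± 6.39 in grafts, overlapping between graft 4 (45.5%) and control 2 (43.9%). None of the 3 rises was called without controls 3 and 4, when complex V had 0 called rows. Atp5e was not called without control 2, control 3, control 4, graft 1, graft 3 or graft 4, and Atp5g1 and Atp5g2 were called without control 1 only, among the fits that left out a library. The number of complex V rows that fell was 3 without control 2 and 0 without control 4, graft 1, graft 2 or graft 3. With library totals, 5 rows of complex V rose and 0 fell, and the median of the complex turned from -0.19 to 0.025.

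The mitochondrial genome is read from both strands as long precursors that are cut into shorter RNAs, so genes of the same strand share a precursor. In these veins its 13 protein genes gave 2.62%, 4.04%, 5.55% and 7.21% of all counts in controls and 3.91%, 3.81%, 4.04% and 2.32% in grafts. The groups overlapped, with controls 3 and 4 highest and graft 4 lowest, and the means were 4.85% ± 1.98 and 3.52% ± 0.80 (SD, n = 4). COX1, the catalytic subunit of complex IV, gave 40.8% to 65.1% of these counts, and control 1 had the highest share.

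Of the 13 rows 12 had a fold below 0, from -1.43 to -0.37, and ND3 had 0.14. For none of them were the groups apart. ND1, a membrane subunit of complex I, had 955, 4019, 3870 and 7100 CPM in controls and 1532, 1845, 1567 and 953 CPM in grafts. Control 1 lay among the grafts. Its fold was -1.43 ± 0.49 (SE), edgeR adjusted p 0.0399, and it was called in 1 of the 8 fits that left out a library, that without control 1. With controls 3 and 4 left out its fold was -0.75 (adjusted p 0.302). ND6, the only protein gene on the light strand, had 1024, 1688, 2221 and 2165 CPM in controls and 1043, 858, 513 and 656 CPM in grafts. Control 1 lay just below graft 1. ND6 fell by 1.21 ± 0.29 (SE), edgeR adjusted p 0.00878, a call that held in 15 of 16 alternatives and was lost without controls 3 and 4 (adjusted p 0.0946). The sources do not say whether the counting used strand, so reads of the opposite strand over ND6 cannot be told apart from its own.

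The other complex I genes had folds of -1.42 (ND4), -1.32 (ND4L), -1.28 (ND2) and -0.83 (ND5). CYTB of complex III had -0.67, ATP6 and ATP8 of complex V had -0.70 and -0.54, and COX1, COX2 and COX3 of complex IV had -0.56, -0.43 and -0.37. None of these 10, nor ND3, was called. Control 1 was the lowest control for all of the 13 except ND3. Without control 1, 9 rows were called as lower: ND1, ND2, ND4, ND4L, ND5, ND6, CYTB, ATP6 and ATP8. Without control 2, 3 or 4, or graft 2, 3 or 4, 1 was called, and without graft 1, 2 were. The folds of COX2, COX3, ATP6 and ATP8 turned to 0.38, 0.27, 0.26 and 0.34 without controls 3 and 4.

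**Figure D4:**
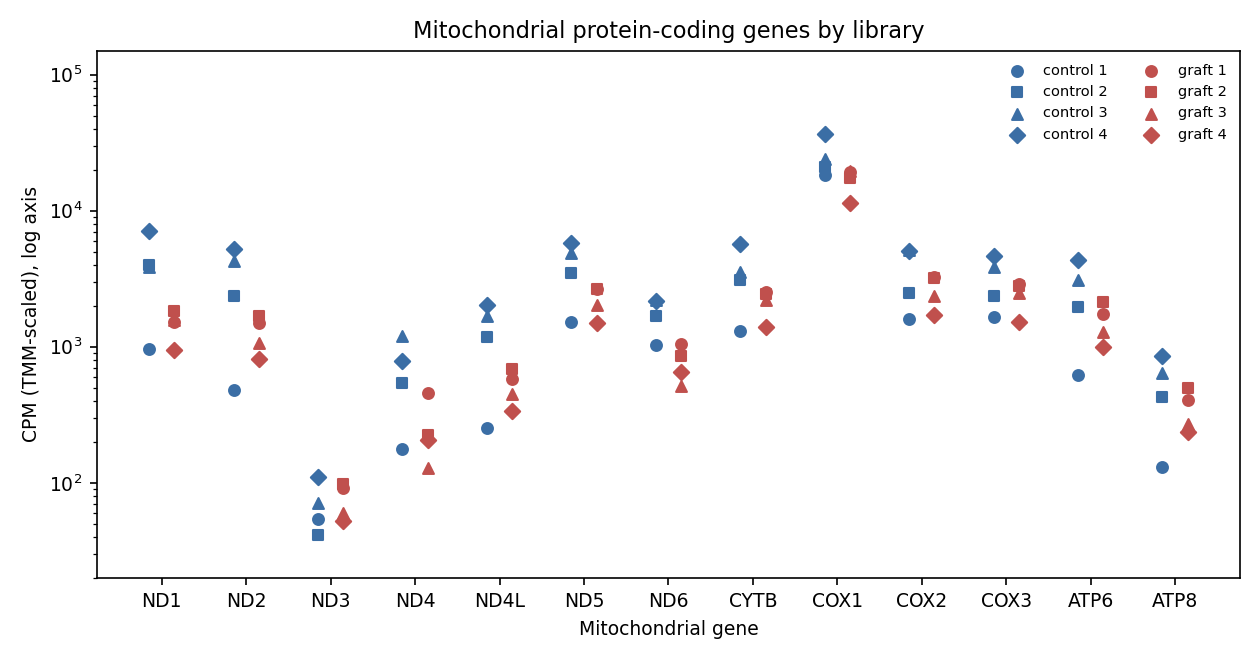
CPM (TMM-scaled, logarithmic y axis) of the 13 mitochondrial protein genes in each library, controls in blue and grafts in red, with a marker shape per library number. For ND1, control 1 (955 CPM) lies at the level of graft 4 (953 CPM), far below the other controls.

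Nuclear and mitochondrial genes did not keep a fixed ratio between libraries. There were 8.24, 14.3, 14.7 and 14.5 mitochondrial counts per count of a nuclear member in controls and 13.3, 13.0, 13.9 and 7.26 in grafts. Control 1 and graft 4 were apart from the other 6 libraries, and the groups overlapped (12.9 ± 3.14 and 11.9 ± 3.10, SD, n = 4). For complex I, which joins subunits of both genomes, the nuclear sum was 931, 904, 1115 and 1623 CPM in controls and 777, 761, 647 and 783 CPM in grafts. The mitochondrial sum of complex I was 4460, 13317, 18245 and 23227 CPM in controls and 7871, 8038, 5814 and 4513 CPM in grafts, overlapping through control 1 alone. Control 1 was also the library with the most erythrocyte marker RNA, 9540 CPM against 358 to 1623 CPM in the others.

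Assembly factors help build the complexes. Of 15 for complex I, 2 fell (Tmem70 and Foxred1) and 0 rose, with 4 at an unadjusted p below 0.05, and of 25 for complexes II to V, 7 fell and 2 rose. The shares that fell were 13.3% and 28%, against 21.3% of all genes, and those that rose were 0% and 8%, against 21.0%. Tmem70, known as an assembly factor of the ATP synthase and listed here for complex I, had 16.6, 21.9, 28.4 and 47.6 CPM in controls and 12.6, 12.0, 7.04 and 11.7 CPM in grafts, with no overlap. It fell by 1.39 ± 0.33 (SE), edgeR adjusted p 0.00764, and by 0.82, not called, without controls 3 and 4 (adjusted p 0.0545). Cox16, needed for COX2 insertion, had 62.3, 63.0, 65.2 and 71.7 CPM in controls and 44.2, 40.6, 40.2 and 41.1 CPM in grafts. Both groups were tight and far apart, and the fall of 0.66 ± 0.10 (SE) had an edgeR adjusted p of 0.000753. Cox18, which also acts on COX2, rose by 0.65 ± 0.18 (SE), edgeR adjusted p 0.0169, with Coa3 the other riser. The rise of Cox18 was not called without controls 3 and 4.

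Of 11 tested regulators of mitochondrial biogenesis, 5 fell (Ppargc1a, Ppargc1b, Esrrg, Gabpa and Ppara) and 1 rose (Pprc1), or 45.5% and 9.1% against 21.3% and 21.0% of all genes. Ppargc1a, the coactivator PGC-1alpha, had 5.69, 8.66, 33.6 and 27.1 CPM in controls and 10.0, 3.46, 4.32 and 5.52 CPM in grafts. Controls 3 and 4 were far above the rest and controls 1 and 2 overlapped the grafts. Its fold was -1.67 ± 0.57 (SE), edgeR adjusted p 0.04, and -0.29 with an adjusted p of 0.667 without controls 3 and 4. The call was also lost without control 3, control 4, graft 2, graft 3 or graft 4 alone.

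Ppargc1b, its relative, had 22.1, 22.5, 23.1 and 25.8 CPM in controls and 14.4, 15.9, 12.9 and 13.9 CPM in grafts. Both groups were narrow and apart, and the fall of 0.71 ± 0.13 (SE) (edgeR adjusted p 0.00246) was kept without controls 3 and 4 (-0.64, adjusted p 0.023). Gabpa, the DNA-binding subunit of GABP and so a reader of the ETS letters above, had 103, 155, 158 and 145 CPM in controls and 80.0, 81.1, 51.9 and 74.4 CPM in grafts, with no overlap. It fell by 0.96 ± 0.18 (SE), edgeR adjusted p 0.00255, and by 0.84 (adjusted p 0.0301) without controls 3 and 4. Nrf1 was not called, with 48.2, 49.1, 53.7 and 46.9 CPM in controls and 38.2, 45.7, 52.9 and 38.6 CPM in grafts. Esrra was not called either (0.34 ± 0.19 SE, edgeR adjusted p 0.167). Ppara, a driver of fat oxidation, had 15.1, 15.5, 79.7 and 93.0 CPM in controls and 2.40 to 2.89 CPM in grafts. It fell by 4.28 ± 0.65 (SE), edgeR adjusted p 0.000753, and by 2.55 without controls 3 and 4 (adjusted p 0.00036). Pprc1 rose by 0.56 ± 0.19 (SE), edgeR adjusted p 0.0401, a call lost without control 2, control 3, control 4, graft 1, graft 2 or graft 3, and without controls 3 and 4.

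Of 19 genes for mitochondrial transcription and replication, 4 fell (Tfb2m, Mterfd1, Pnpt1 and Grsf1) and 1 rose (Polg), with 21.1% falling, near the share over all genes (21.3%), and 5.3% rising. Tfb2m, which opens the promoter for the mitochondrial RNA polymerase, had 18.7, 26.5, 19.8 and 25.2 CPM in controls and 14.4, 12.4, 10.6 and 11.9 CPM in grafts. Its groups did not overlap, and it fell by 0.87 ± 0.17 (SE), edgeR adjusted p 0.00322, and by 0.87 without controls 3 and 4 (adjusted p 0.0187). Tfam, which packs mitochondrial DNA and starts its transcription, had 19.0, 24.8, 21.9 and 23.5 CPM in controls and 16.7, 14.8, 18.6 and 18.6 CPM in grafts. Every graft lay below every control, by a small margin, and Tfam was not called (-0.37 ± 0.15 SE, edgeR adjusted p 0.0646). The polymerase Polrmt was not called (0.36 ± 0.25 SE, edgeR adjusted p 0.275). Polg, the mitochondrial DNA polymerase, rose by 0.37 ± 0.11 (SE), edgeR adjusted p 0.0216, and was not called without control 2, control 3 or graft 4, nor without controls 3 and 4.

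Of 23 genes for cytochrome c, coenzyme Q and carriers, 4 fell (Etfa, Etfdh, Coq9 and Hccs) and 1 rose (Adck4), or 17.4% and 4.3% against 21.3% and 21.0% of all genes. Etfa, which passes electrons from fatty acid oxidation, had 46.8, 57.4, 114 and 154 CPM in controls and 36.0, 39.9, 33.6 and 41.7 CPM in grafts. It fell by 1.29 ± 0.34 (SE), edgeR adjusted p 0.0129, and by 0.46, not called, without controls 3 and 4 (adjusted p 0.0641). Adck4 rose by 0.78 ± 0.28 (SE), edgeR adjusted p 0.0492, and among the fits without 1 library only that without control 1 called it. Of 9 uncoupling and oxygen-responsive genes, 5 fell (Pdk1, Egln3, Bnip3, Higd1a and Epas1) and 1 rose (Ucp2), or 55.6% and 11.1%.

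Pdk1, the kinase that holds pyruvate back from the citric acid cycle and a classic HIF target, had 88.5, 113, 125 and 190 CPM in controls and 49.5, 42.4, 40.3 and 44.7 CPM in grafts. It fell by 1.54 ± 0.21 (SE), edgeR adjusted p 0.000477, with no overlap. Ucp2, an inner membrane carrier abundant in macrophages, had 95.6, 116, 84.2 and 72.8 CPM in controls and 135, 167, 238 and 169 CPM in grafts. It rose by 0.94 ± 0.20 (SE), edgeR adjusted p 0.00445, also with no overlap. Both calls held in every alternative.

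Most genes of the other mitochondrial machinery were not called. Of 70 mitochondrial ribosome rows 4 rose (Mrps17-ps1, Mrpl43, Mrpl49 and Mrps34) and 4 fell (Mrpl48, Mrpl51, Mrps35 and Mrps17), with a median of -0.08, and reads of Mrps17 and its pseudogene may be shared. Of 20 import genes 1 fell, Tomm70a, a receptor of the outer membrane, by 1.02 ± 0.19 (SE), edgeR adjusted p 0.00205, and 0 rose (6 had an unadjusted p below 0.05). For comparison, of 94 cytosolic ribosome rows 19 rose (20.2%) and 1 fell (1.1%), with a median of 0.22. Among all genes tested 21.0% rose and 21.3% fell, so the rises in that list were near the share over all genes and the falls below it. In the mitochondrial ribosome list 5.7% rose and 5.7% fell, and in the import list 0% rose and 5% fell, all below those shares.

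Marker lists of other cells went in different directions, and their part in these results was not tested. Among all genes tested 21.0% rose and 21.3% fell. Smooth muscle markers fell in 9 of 9 genes, macrophage markers rose in 7 of 7 and T and NK cell markers rose in 7 of 7. White adipocyte markers fell in 9 of 9 and brown adipocyte markers in 4 of 4 tested, 1 of them Ppargc1a, which serves in both lists. Brown adipocyte markers summed to 32.1, 31.4, 203 and 337 CPM in controls and 15.2 to 21.3 CPM in grafts, highest in controls 3 and 4 as were Sdha, Uqcrc2 and the mitochondrial sum, and Elovl3 was at 0 in all libraries. Endothelial markers fell in 4 of 8 genes (3181 to 4817 CPM in controls, 1462 to 1799 CPM in grafts), and erythrocyte markers in 4 of 5. Of the endothelial sum, Vwf alone had a mean of 2207 CPM in controls and 479 CPM in grafts. Cdh5, Kdr, Tie1 and Erg were not called, with folds of -0.23, -0.08, -0.06 and -0.27. Fibroblast markers summed to 37900 to 74790 CPM in controls and 15770 to 37390 CPM in grafts, with 2 of 6 lower and 1 higher. Of 10 skeletal muscle markers 1 rose and 0 fell, and of 3 tested cardiac markers 2 rose and 1 fell. The neuron and brain list held 43.1, 56.8, 658 and 608 CPM in controls and 22.2 to 84.5 CPM in grafts, of which Map2 rose and the myelin gene Mbp fell. Of its 4 tested genes that is 25% in each direction, near the shares over all genes.

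**Figure D5:**
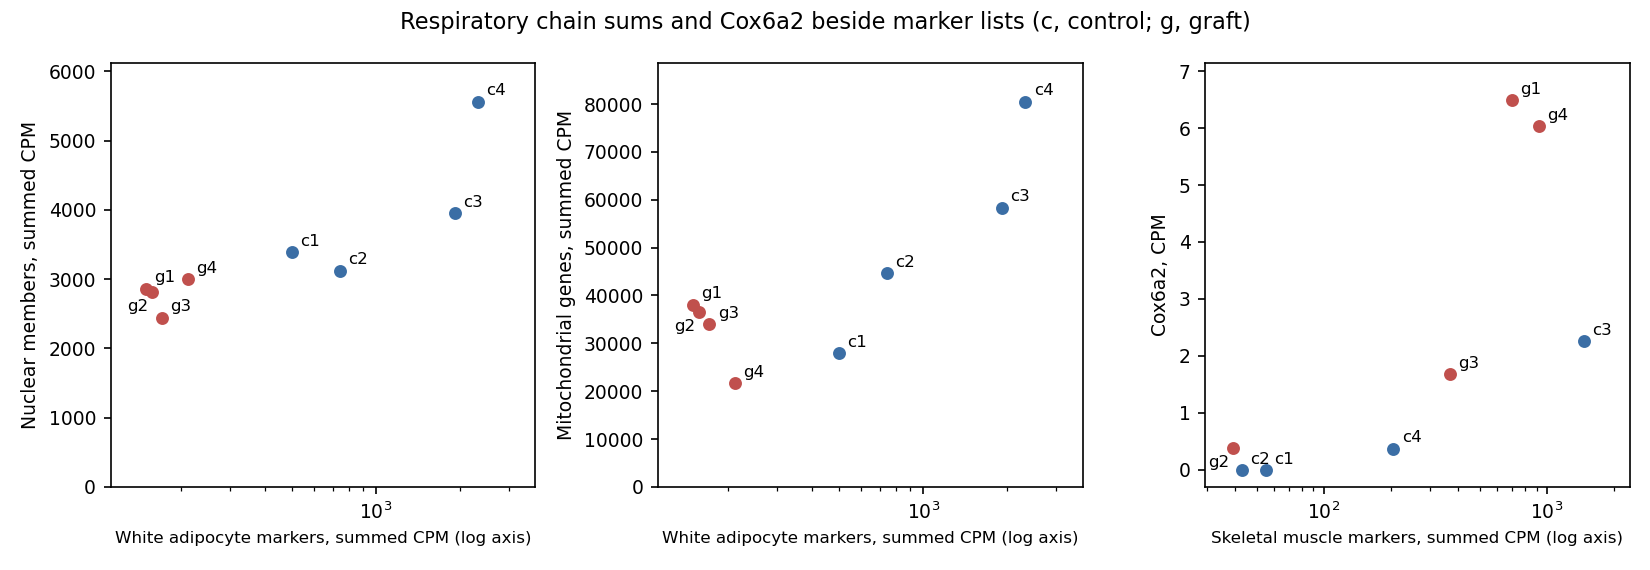
Left and middle, summed CPM of the nuclear members and of the 13 mitochondrial genes (y axes) against the summed CPM of 9 white adipocyte markers (logarithmic x axis); right, Cox6a2 CPM against the summed CPM of 10 skeletal muscle markers (logarithmic x axis); each point is a library (c, control; g, graft). Controls 3 and 4 are highest in adipocyte markers and in both sums, and grafts 1 and 4 are highest in Cox6a2 (6.49 and 6.04 CPM).

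The remaining 15 members had too few counts to test. Of these, 9 are named as pseudogenes or copies, with 0 to 78 counts over the 8 libraries. The others are Ndufs6, Cox7b2, Cox8c, Ndufa13, Cox8b and Ndufa1. Ndufs6 is listed at 0 in every library and Ndufa13 had 4 counts in all, although both encode subunits that complex I needs, and the cause was not tested. Ndufa1 had 62 counts in control 1, 13 in graft 3 and 0 to 3 in the other libraries. Cox7b2 and Cox8c, known from testis, had 0 and 1 counts in all.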

How the data were processed

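The submitters' processing notes name HISAT2 2.0.4 and the build Rnor_6.0 for the 4 graft and 4 control libraries. The read counter, annotation and strand setting are not stated. The values deposited by the authors are whole-number counts per gene, in a table of 37209 rows, and no normalization was found in them. Groups follow the sample titles. The numbers in the labels do not settle which graft belongs to which control, so the main test is unpaired, and p-values measure the spread between these libraries. No batch is named in the labels.

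The analysis used edgeR 4.0.16 under R 4.3.3: filterByExpr with a minimum count of 10 kept 15464 genes with 99.08% to 99.86% of each library's counts, libraries were scaled by TMM (factors 0.90 to 0.96 in controls, 1.03 to 1.19 in grafts), and glmQLFit and glmQLFTest gave p-values adjusted over all genes tested. The SE is the absolute log2 fold change over the square root of F. Replicates were checked for identity, and each pair within a group differed beyond sampling noise. The test was checked on simulated data. Alternatives used DESeq2 1.42.0, limma 3.58.1 (voom), other scalings, no count filter, a replicate block and left-out libraries.

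The members, gene lists and markers, and the choice to leave out controls 3 and 4, were made with earlier results of these data known. Named genes are the mitochondrial and Sdh rows, the 3 called members of lowest p per direction in each other complex, isoform sets, 8 regulators, and the gene with the smallest p in each direction per list. Other called members and list genes, and Uqcrb, Ndufv1 and Atp5a1, were chosen after their values were seen. The rows of S6 kinases, which the name pattern of the cytosolic ribosome list also takes, were left out after seeing the data (with them, 22 of 103 rose and 4 fell). Gene lengths were not used, so levels are not compared between genes. Promoter sequences are those of RefSeq, GRCr8.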

Additional observations from a re-analysis of the deposited data

Results flagged for a closer look

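In 13 of 194 groups of 4 values examined, the highest or lowest library stood apart from the other 3 by Dixon's 95% criterion for its gap to the nearest value, which chance alone gives in about 1 of 20 groups. Among members these were Sdhd in graft 4 (67.8 CPM, others 58.2 to 58.3), Uqcrh in control 4 (98.6 CPM, others 78.0 to 80.8), Uqcrb-ps1 in graft 3 (6.72 CPM, others 15.8 to 16.1), Cox6a1 in control 1 (31.7 CPM, others 13.1 to 16.1) and Cox6a2 in control 3 (2.26 CPM, others 0 to 0.373). Among the other genes they were Tmem70 in graft 3 (7.04 CPM, others 11.7 to 12.6), Dcn in control 2 (4290 CPM, others 3080 to 3230), Ryr2 in graft 2 (21.4 CPM, others 2.80 to 5.14) and Mbp in graft 3 (55.7 CPM, others 10.8 to 13.5).

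Graft 4 had the lowest mitochondrial share of counts of its group (2.32%, others 3.81% to 4.04%) and the highest nuclear member share (0.32%, others 0.29% to 0.294%). The number of mitochondrial counts per nuclear member count was low in control 1 (8.24, others 14.3 to 14.7) and in graft 4 (7.26, others 13.0 to 13.9). Graft 4 gave 4 of the 13 and graft 3 gave 3.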

How the results depend on the processing

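Called members kept their direction under all 16 alternatives, and 5 of 31 kept their call in each. The cause of the changes below was not tested. Without controls 3 and 4, 5 nuclear members fell and 1 rose and 0 mitochondrial rows fell. By complex, 3, 1, 1, 0 and 0 nuclear rows of I to V fell, and 1 of IV and 0 of V rose. Folds then turned to 0.27 for COX3, 0.38 for COX2, 0.34 for ATP8, 0.26 for ATP6, 0.11 for Sdhb, -0.28 for Cox6b2, 0.01 for Ndufa4l2 and -0.15 for Atp5g3. With library totals, 13 nuclear members, 1 mitochondrial row, and 8, 1 and 0 nuclear rows of complexes I, IV and V fell, 5 of V rose, and 2164 of all genes fell against 4558 that rose. Folds turned to 0.06 for Cox7a2, 0.21 for Ndufa4l2 and 0.06 for Nrf1. The fold of Ndufa4l2 was 0.05 with upper-quartile factors and 0.01 with no count filter. DESeq2 called 4 mitochondrial rows and 2 of complex V as lower, and voom called 1 mitochondrial row.

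Leaving out each library in turn gave 11 to 28 nuclear members that fell and 0 to 8 that rose, and 1 to 9 mitochondrial rows that fell. For complexes I, II, III, IV and V, 7 to 16, 1 to 2, 1 to 5, 2 to 3 and 0 to 3 nuclear rows fell. In III, IV and V, 0 to 2, 0 to 3 and 0 to 3 rose. The share of counts in mitochondrial members, graft minus control, ran from -2.081 to -0.549 percentage points (-1.33 with all libraries) and that in nuclear members from -0.098 to -0.026. Folds ran from -0.04 to 0.45 for ND3, from -0.08 to 0.39 for Cox6b2, from -0.46 to 0.03 for Cox7b, from -0.12 to 0.13 for Ndufa4l2 and from -0.12 to 0.35 for Atp5g3.

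Whether title numbers pair the libraries was not settled. Same-numbered grafts and controls correlated at -0.075, 0.18, 0.071 and 0.051 in their deviations from group means, and the other pairs at -0.248 to 0.154. With 4 libraries per group such values cannot decide which veins share a rat. With title number as a replicate block, 19 nuclear members fell and 4 rose and 1 mitochondrial row fell. Depth limits the rows with few counts, such as Cox6b1, Cox4i2 and Cox8b.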
